A study of Mus musculus with 3 samples.

Results

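The genes described here encode the mitochondrial respiratory chain and the ATP synthase. They were chosen by symbol through the RefSeq transcript of each probe: symbols that begin with Ndufa, Ndufb, Ndufc, Ndufs or Ndufv (complex I), Sdha to Sdhd (complex II), Uqcr and Cyc1 (complex III), Cycs (cytochrome c), Cox4 to Cox8 (complex IV), and Atp5 (complex V, the ATP synthase). The array held 94 such genes, with 127 probes, among 19752 genes with a named probe. Grouped by symbol, they comprised 38 subunits of complex I and 8 assembly factors of complex I whose symbols begin with Ndufaf. The others were 4 genes of complex II, 9 of complex III, Cycs, 18 of complex IV, and 16 of complex V. No named probe carried a symbol of the subunits encoded in mitochondrial DNA, which were not analysed here, and 23 further symbols that match the rule had no probe, 16 of them pseudogenes.

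The study profiled skin-resident macrophages, sorted as CD11b+Gr1-F4/80+ cells from the backskin of CD1 mice, across the resting phase of the hair cycle (telogen). Early telogen (Te) was labeled postnatal day 42, slightly earlier than the study's text places it, mid telogen (Tm) day 55, and late telogen (Tl) day 69, and no other genotype or treatment was given for any of them. RNA of 3 littermate mice was pooled at each stage and hybridized to 1 array, so that each stage had 1 value per probe, no spread between mice could be measured, and no test between stages was made. All 11 macrophage markers on the array, among them Adgre1 (F4/80), Itgam (CD11b), and Csf1r, were detected on every array. All 15 keratinocyte markers were detected as well.

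The respiratory chain passes electrons from NADH and succinate to oxygen and uses the energy released to pump protons across the inner mitochondrial membrane. Complexes I and II feed electrons into ubiquinone, complex III hands them to cytochrome c, complex IV reduces oxygen, and complex V lets the protons flow back to make ATP. In macrophages this machinery is known to be used most in resting and alternatively activated cells, and to give way to glycolysis in cells activated by bacterial products.

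Many nuclear genes of the chain share short promoter motifs, and the windows that RefSeq gives for these genes (250 bases before to 50 after the start of the gene, in the direction of the gene, mouse build GRCm38.p6) were searched for them on both strands. A window was given for 76 of the 94 genes. The motif GCGCANGCG, which resembles the site of the transcription factor NRF1, was found in 24 of their 81 windows (29.6%) and in 6.25% of all 32851 windows. The 7 letters CCGGAAG, part of sites of ETS factors such as GABPA, were in 19 windows (23.5%, against 8.86% of all), AAGATGGCG, which resembles the site of YY1, in 8 (9.88%, against 1.40%), and the TATA letters TATAAA in 9 (11.1%, against 13.6%). At least 1 of the first 3 motifs was found in 41 of the 76 genes. The share of all windows with at least 1 of the 3 was not computed, so that this count has no background beside it. A match to letters is a description of the window and no evidence of binding.

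For 5 genes, 60 bases before the start are shown, to let a reader see the NRF1-type motif in members whose values are given further on. In each of complexes I, II, IV, and V, and for cytochrome c, the gene is the one with the largest difference between the Tm and the Te array among those with a match before the start, and in complex III the matches lay after the start. Capitals mark the match, and the sequences run 5′ to 3′ in the direction of the gene, which was the minus strand for each.
Ndufb4, chr16:37654369-37654428: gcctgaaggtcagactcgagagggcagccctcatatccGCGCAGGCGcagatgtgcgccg
Sdha, chr13:74350241-74350300: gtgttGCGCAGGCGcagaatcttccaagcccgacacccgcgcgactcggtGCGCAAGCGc
Cycs, chr6:50566596-50566655: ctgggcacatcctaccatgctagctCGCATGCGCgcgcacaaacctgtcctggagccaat
Cox6a1, chr5:115349041-115349100: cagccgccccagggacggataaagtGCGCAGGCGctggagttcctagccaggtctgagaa
Atp5c1, chr2:10080433-10080492: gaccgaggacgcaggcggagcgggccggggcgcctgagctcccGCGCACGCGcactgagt
Among these windows, that of Sdha holds 2 matches and each of the others 1. By complex, a gene with an NRF1-type match was found in 8 of 33 complex I subunits with a window, 2 of 3 in complex II, 2 of 5 in complex III, 1 of 13 in complex IV, and 7 of 14 in complex V.

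The level of a probe is given as the log2 of its background-corrected signal minus the log2 of the 75th percentile of the array, so that a level of 0 is the 75th percentile and a difference of 1 between arrays is a 2-fold difference in signal. A probe was taken as detected when the scanner software called it well above background. At this definition 91 of the 94 genes were detected on the Te array, 91 on the Tm array, and 92 on the Tl array (96.8%, 96.8%, and 97.9%), against 77.7%, 70.4%, and 77.0% of all genes. Cox7b2 and Cox8c, isoforms of complex IV subunits known from testis, were detected on none, and 90 genes were detected on all 3. The only measurable error was that of repeated spots, which gives an SD of 0.16 for a difference between the Te array and either later array, and which leaves out the spread between mice. In pooled RNA of sorted cells, fewer cells of a type and less RNA per cell cannot be told apart.

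Most respiratory chain genes had a higher signal on both later arrays than on the Te array. The median level of the 94 genes was 2.50 on the Te array, 4.12 on the Tm array, and 3.41 on the Tl array. On the Tm array the median difference from Te over the 92 genes with a value was 1.47 (quartiles 1.11 to 1.74), and 76 genes were at least 2-fold higher and 2 at least 2-fold lower. Among all 15847 genes with a value the median difference was 0.22, and 29.1% were at least 2-fold higher and 16.9% at least 2-fold lower. On the Tl array the median difference from Te was 0.64 (quartiles 0.27 to 1.09), with 27 genes at least 2-fold higher and 2 lower, where 22.2% of all genes were higher and 20.7% lower and the median of all 16168 genes was 0.15. The members thus stood 1.25 above the median of all genes on the Tm array and 0.49 on the Tl array, and 88 and 76 of the 92 lay above that median. Both comparisons share the Te array, so that they are not independent of each other. None of the genes reached a 10-fold difference in either under this scaling.

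**Figure D1:**
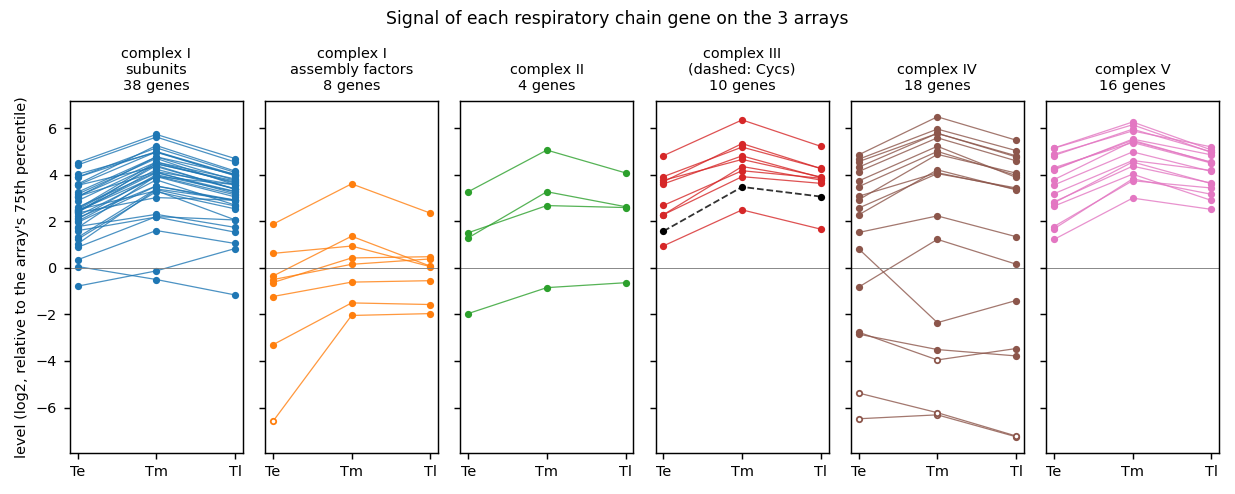
Level of each of the 94 genes on the Te, Tm, and Tl arrays (log2 of the signal relative to the 75th percentile of the array), by complex. Each line is 1 gene, open points were not well above background, and there is 1 array per stage, so no error bar is drawn. Most lines are lowest at Te and highest at Tm, with the medians at 2.50, 4.12, and 3.41, and without scaling of the arrays the median difference between Tl and Tm was 0.09 in place of -0.81.

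The array deposited as Tl lay below that deposited as Tm for most of the genes, by a median of 0.81 under this scaling, but above it by 0.09 without any scaling. No gene was at least 2-fold higher on the Tl array than on the Tm array (7.85% of all genes) and 23 were at least 2-fold lower (11.3% of all genes). The median of all genes differed by -0.15 between these arrays, and by 0.72 without scaling, so that relative to all genes the members lay lower on the Tl array by 0.66 and 0.63, respectively. The level was lowest on Te and highest on Tm, with Tl between, in 73 of the 90 genes detected throughout (81.1%) under the percentile scaling, against 33.8% of 13081 genes. Complex III held this order in 9 of 9 genes, complex V in 14 of 16, and complex I in 31 of 38. The assembly factors held it in 3 of 7. The authors' own table of log2 values carries the values of these arrays under the opposite stage names, so each statement that tells Tm from Tl depends on which assignment is right, and each statement that sets both later arrays against Te does not.

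**Figure D2:**
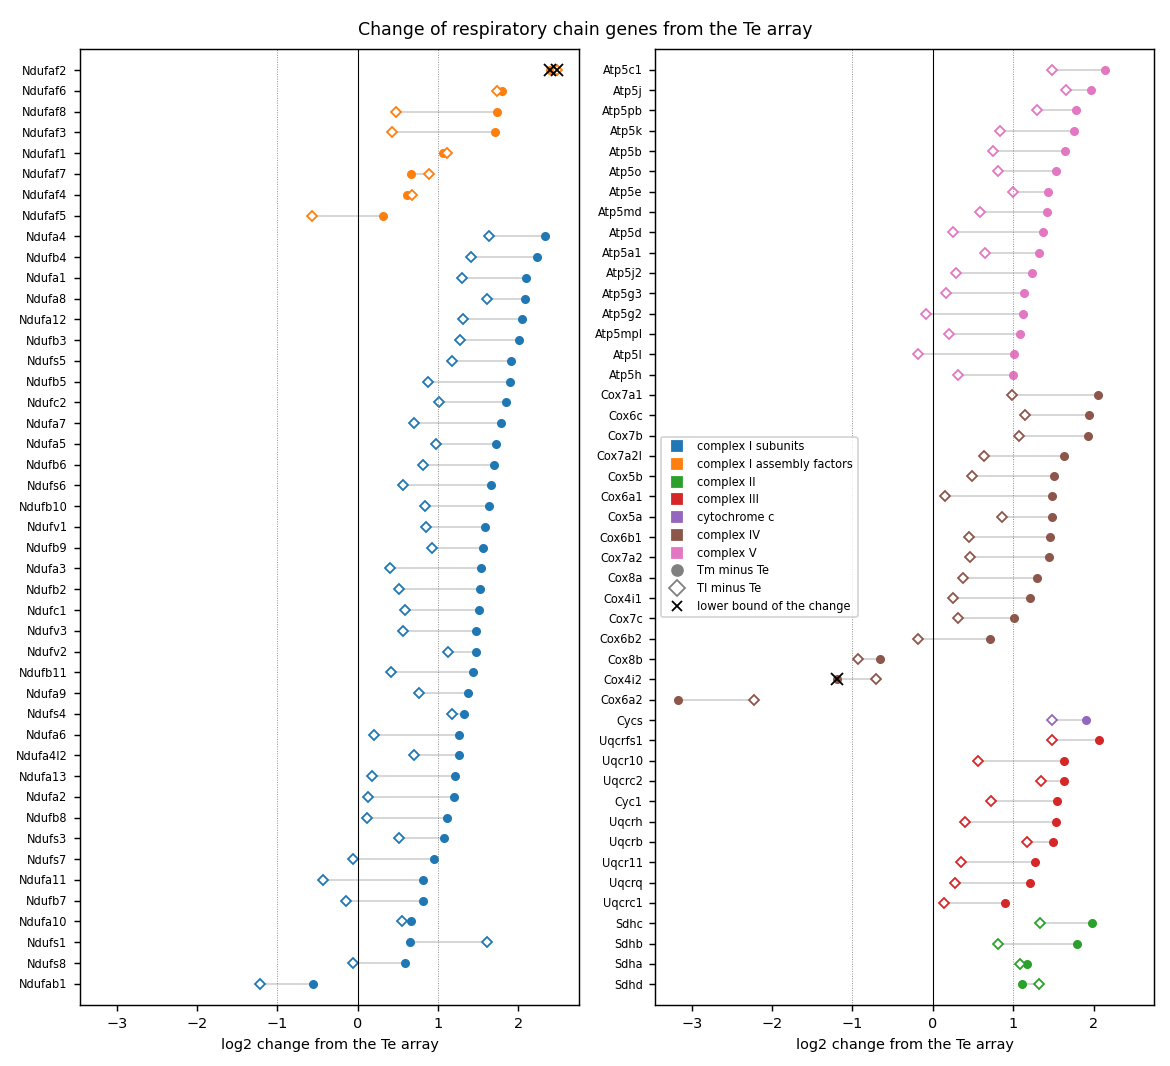
Difference of 91 of the 92 genes with a value from the Te array on the log2 scale, for the Tm array (filled circles) and the Tl array (open diamonds), by complex. Dotted lines mark 2-fold, crosses mark lower bounds, and no error between mice could be measured. At or beyond 2-fold higher lie 76 genes at Tm and 27 at Tl, and Cox6a2 lies far to the left at -3.17 and -2.22.

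In complex I, which oxidizes NADH, 37 of the 38 subunits had a higher level on the Tm array than on the Te array and 32 on the Tl array, with median differences of 1.49 and 0.70. At least 2-fold higher were 30 subunits on the Tm array (78.9%, beside 29.1% of all genes) and 11 on Tl (28.9%, beside 22.2%). Ndufa4, first described as a complex I subunit and now assigned to complex IV, was counted with complex I by its symbol, as was Ndufa4l2. The level of Ndufa4 was 1.03 on the Te array, 3.36 on the Tm array, and 2.66 on the Tl array. This was 5.01-fold higher on Tm and 3.09-fold higher on Tl than on Te. Ndufb4, an accessory subunit of the membrane arm, went from 1.72 to 3.95 and 3.14. Ndufa8, an accessory subunit on the side of the intermembrane space, had levels of 1.30, 3.39, and 2.91. The accessory subunits Ndufa1, Ndufa12, Ndufb3, Ndufc2, Ndufs4, and Ndufs5 and the core subunit Ndufv2 were also at least 2-fold higher on both later arrays, with differences of 1.32 to 2.10 on Tm and 1.01 to 1.31 on Tl.

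Core subunits carry the flavin and the iron-sulfur clusters through which electrons pass from NADH to ubiquinone. Ndufv1, which binds NADH and FMN, had levels of 2.88, 4.46, and 3.73 on the Te, Tm, and Tl arrays, and Ndufv2, its partner with an iron-sulfur cluster, 2.45, 3.92, and 3.57. Ndufs1, the largest subunit, which carries several iron-sulfur clusters, had levels of -0.79, -0.13, and 0.83 and was thus highest on the Tl array, 0.96 above Tm. Nearer the ubiquinone site, Ndufs7 had levels of 4.02, 4.97, and 3.96, Ndufs8 of 1.60, 2.18, and 1.53, and Ndufs3 of 3.06, 4.13, and 3.57. Ndufs7 and Ndufs8 were thus within the spot error of their Te level on the Tl array, each at -0.06. Without scaling the median of all genes itself lay 1.32 above Te on the Tl array, so that these are places relative to the other genes.

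Ndufab1, the mitochondrial acyl carrier protein, which complex I shares with fatty acid and lipoic acid synthesis, was the only complex I subunit with a lower level on both later arrays. Its level was 0.06 on the Te array, -0.50 on the Tm array, and -1.16 on the Tl array, a difference of -1.22 on Tl that shrank to -0.06 without scaling. Ndufa11, a membrane subunit near the contact with complex III, had levels of 2.49, 3.31, and 2.06. Ndufb7 had levels of 3.54, 4.35, and 3.39, and its Tl level was thus within the spot error of its Te level.

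Assembly factors help to build complex I and are not part of the finished enzyme. The 8 with symbols that begin with Ndufaf had median differences of 1.39 on Tm and 0.78 on Tl. Ndufaf2, a chaperone of late assembly, was below detection on the Te array (-6.60) and had levels of -2.05 and -1.97 on the later arrays, which makes it at least 5.26-fold higher on Tm and at least 5.56-fold higher on Tl. Ndufaf6 had levels of -3.31, -1.51, and -1.58, and Ndufaf1, which acts on the membrane arm, -0.63, 0.42, and 0.48, each nearly alike on the later arrays. Ndufaf5, a hydroxylase of Ndufs7, had levels of 0.62, 0.94, and 0.05. A second probe of Ndufaf4 lay lower on both later arrays where the probe used lay higher by 0.62 and 0.68. Of 6 assembly factors outside the rule, 4 were at least 2-fold higher on Tm and 3 on Tl (29.1% and 22.2% of all genes). Foxred1 was higher by 1.72 and 1.47, whereas Timmdc1, a factor of the membrane arm, differed by -0.45 and -1.22, with levels of 9.49, 9.04, and 8.27 on the Te, Tm, and Tl arrays.

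Complex II is the succinate dehydrogenase of the citrate cycle, and all 4 of its genes are nuclear. Its median difference was 1.48 on the Tm array and 1.20 on the Tl array, where the other complexes had 0.41 to 0.70. At least 2-fold higher were all 4 genes on Tm and 3 on Tl (29.1% and 22.2% of all genes). Sdha, the flavoprotein that oxidizes succinate, had levels of 1.51, 2.67, and 2.59 on the Te, Tm, and Tl arrays. Sdhb, which carries the iron-sulfur clusters, had levels of 3.27, 5.06, and 4.08. Of the membrane anchors, Sdhc had levels of 1.29, 3.27, and 2.63, and Sdhd of -1.96, -0.85, and -0.64. Sdha and Sdhd lay within 0.21 of each other between Tm and Tl, whereas Sdhb was 0.98 lower on Tl. The second probes of Sdhb and Sdhc were higher by 1.19 and 1.03 on Tm and by 0.37 and 0.69 on Tl.

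In complex III, which passes electrons from ubiquinol to cytochrome c, all 9 genes had higher levels on both later arrays, with median differences of 1.54 on Tm and 0.56 on Tl. At least 2-fold higher were 8 on Tm and 3 on Tl (88.9% and 33.3%, beside 29.1% and 22.2% of all genes). Uqcrfs1, the Rieske iron-sulfur protein at the catalytic site, had levels of 2.28, 4.35, and 3.77. Cyc1, the cytochrome that hands on the electron, had levels of 0.94, 2.49, and 1.66. The core protein Uqcrc2 had levels of 2.28, 3.92, and 3.63, and its probe was spotted often enough to give a spot SD of 0.071, 0.067, and 0.050 from 10, 10, and 8 spots. Its partner Uqcrc1 had levels of 3.76, 4.66, and 3.90 and was the member of complex III with the smallest difference on either array, 0.89 and 0.14. Uqcrb, which takes part in binding ubiquinone, was higher by 1.49 on Tm and 1.17 on Tl.

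Cycs, the soluble carrier between complexes III and IV, which also triggers apoptosis when it leaves the mitochondrion, had levels of 1.57, 3.48, and 3.06 with its brightest probe. Its 3 probes disagreed. The second differed from Te by 0.52 on Tm and 0.70 on Tl, and the third by -0.92 on Tl, with a bound of -2.17 on Tm, where it was below detection. The direction of Cycs is therefore uncertain. Over all members, 25 genes had several probes with a value, and the probes shared their direction in 21 of 25 genes for Tl against Te and in 22 of 24 for Tm against Te. The genes whose probes disagreed were Ndufaf4 and Cycs in both comparisons and Ndufb11 and Atp5l on Tl.

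Complex IV, cytochrome c oxidase, showed the widest range, from -3.17 to 2.05 on Tm and from -2.22 to 1.14 on Tl. Of the 16 genes with a value, 12 were at least 2-fold higher on Tm and 2 on Tl (75% and 12.5%, beside 29.1% and 22.2% of all genes). At least 2-fold lower were 2 and 1 (12.5% and 6.25%, beside 16.9% and 20.7% of all genes). The share higher on Tl was thus below that of all genes. The medians were 1.45 and 0.41. Cox6c, a small membrane subunit, had levels of 2.92, 4.87, and 4.07. Cox7b had levels of 2.28, 4.21, and 3.35, and both genes were at least 2-fold higher on each later array. Cox5a, which binds thyroid hormone metabolites, was higher by 1.48 on Tm and 0.87 on Tl, and Cox5b, which holds zinc, by 1.51 and 0.48. Cox7a2l, a factor that joins complexes III and IV into supercomplexes, had levels of 4.85, 6.49, and 5.49.

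Several complex IV subunits exist as a widespread isoform and as one known from particular tissues, and the pairs are given side by side. Cox6a2, the isoform of heart and skeletal muscle, had a level of 0.82 on the Te array, -2.36 on the Tm array, and -1.40 on the Tl array, and was thus 9.01-fold lower on Tm and 4.66-fold lower on Tl than on Te. Its widespread partner Cox6a1 had levels of 3.73, 5.22, and 3.89. Over the alternatives that keep the arrays as assigned, the difference of Cox6a2 from Te ran from -3.54 to -2.37 on Tm and from -2.43 to -1.06 on Tl. It was the only respiratory chain gene at least 2-fold lower on both later arrays, where 26 of 92 were at least 2-fold higher on both, and among all 15608 genes with both values 1770 were lower and 2587 higher.

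Cox4i2, the isoform of lung that low oxygen induces, had levels of -2.76 on Te and -3.47 on Tl and was below detection on Tm (-3.96), at least 2.28-fold lower than on Te. Cox4i1, the widespread isoform, had levels of 4.56, 5.77, and 4.81. Cox8b, the isoform of muscle and brown fat, had levels of -2.85, -3.51, and -3.78, near the lowest detected level on each array, and turned from a difference of -0.93 to 0.23 on Tl without scaling. Cox8a, its widespread partner, had levels of 4.67, 5.96, and 5.04. Cox7a1, also known from muscle and brown fat, was higher on both later arrays than on Te, with levels of -0.83, 1.22, and 0.16, beside 4.14, 5.59, and 4.60 for the widespread Cox7a2. The isoform known from testis, Cox6b2, had levels of 1.52, 2.23, and 1.34, and Cox6b1 of 4.32, 5.78, and 4.77. Ndufa4l2, which low oxygen is known to induce, had levels of 0.35, 1.60, and 1.05, and was higher by 1.26 and 0.70 where Ndufa4 was higher by 2.33 and 1.63.

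**Figure D3:**
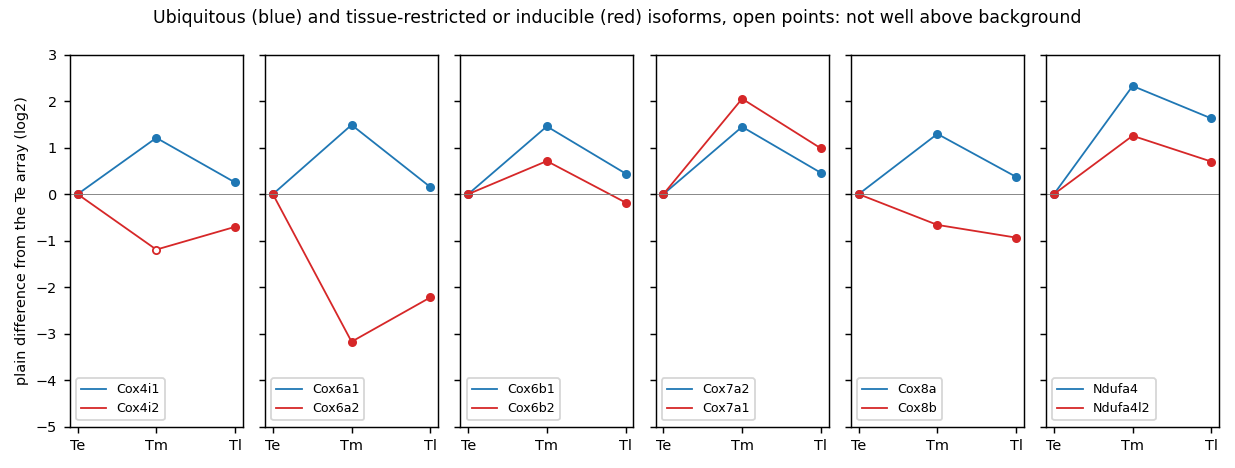
Difference in level from the Te array (log2) on the Tm and Tl arrays for pairs of isoforms, with the widespread isoform in blue and the one known from particular tissues or induced by low oxygen in red. Each point is 1 array, with no error between mice, and the open point was not well above background. Cox6a2 lies at -3.17 and -2.22 while Cox6a1 lies at 1.49 and 0.15, and Cox7a1 lies above Cox7a2.

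Markers of other tissues are given beside these isoforms. Of 12 skeletal muscle markers, 7 were detected on the Te array, 6 on the Tm array, and 8 on the Tl array, and their summed signal, in units of the 75th percentile, was 22.3, 12.7, and 12.8. Most of that sum came from Tnni2, a troponin of fast muscle fibers, with levels of 4.33, 3.19, and 3.33. The list did not follow it: its median difference from Te was 0.43 on Tm (7 genes) and 0.34 on Tl (8 genes), with 2 genes at least 2-fold higher and 1 lower on each. Myl1, a myosin light chain, was higher by 2.12 and 1.11, and Tnnc2, a troponin, by 1.19 and 0.76. Mb, Myh1, and Actn3 were detected on none of the arrays, and Myh4 and Ckm on the Tl array only. Of 7 markers of brown and white fat, 6 were detected on the Te array and 4 on each later array, with median differences of 0.83 on Tm and -0.46 on Tl and a summed signal of 32.8, 43.1, and 31.0. Ucp1, the uncoupling protein of brown fat, had levels of -2.29 on Te and -3.13 on Tl and was below detection on Tm, whereas Cidea, a lipid droplet protein of brown fat, was higher by 2.28 and 0.56 and Plin1, which coats lipid droplets, by 1.37 and 0.51. The part of other cells in the values of Cox6a2 was not tested.

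In complex V, the ATP synthase, all 16 genes were at least 2-fold higher on the Tm array and 4 on the Tl array. These were 100% and 25%, beside 29.1% and 22.2% of all genes, so that the share on Tl was near that of all genes. The median differences were 1.40 and 0.61. Atp5a1 and Atp5b, the subunits of the catalytic ring, had levels of 4.21, 5.53, and 4.85, and of 3.79, 5.44, and 4.54. Atp5c1, the rotating central stalk, had levels of 1.67, 3.82, and 3.16 and the largest difference on Tm, 4.43-fold. In the peripheral stalk, which holds the head still, Atp5j (also called coupling factor 6) had levels of 1.77, 3.74, and 3.43 and the largest difference on Tl, 3.15-fold. Atp5pb, the b subunit of this stalk, was higher by 1.78 and 1.29, and Atp5e, the smallest subunit of the central stalk, by 1.43 and 1.00.

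Of the genes of the membrane ring that the protons turn, Atp5g1 had no probe, and the 2 with a probe had Tl levels close to those on Te. Atp5g2 had levels of 5.15, 6.26, and 5.07 and Atp5g3 of 4.82, 5.96, and 4.99, so that both were higher on Tm, by 1.12 and 1.13, and lay within the spot error of Te on Tl, at -0.08 and 0.16. The subunit Atp5l had levels of 5.14, 6.15, and 4.96, and its 5 probes differed from Te by 0.80 to 1.50 on Tm. The division of complex V into head with central stalk, peripheral stalk, and ring was made after the values were seen. The catalytic head with the central stalk (5 genes) had medians of 1.43 on Tm and 0.75 on Tl. The peripheral stalk (4 genes) had medians of 1.66 and 1.05. Without scaling Atp5g2 lay 1.08 above Te on the Tl array, so that its place is one relative to the other genes.

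Genes that work beside the chain were set against it from fixed lists. The 78 mitochondrial ribosomal proteins, which make the subunits encoded in mitochondrial DNA, had medians of 1.49 on Tm and 0.83 on Tl. At least 2-fold higher were 54 and 29 of them (70.1% and 37.7%, beside 29.1% and 22.2% of all genes). The 33 assembly factors of complexes II to V had medians of 1.19 and 0.75. Cox17, a copper carrier for complex IV, was higher by 2.38 and 1.99, and Sdhaf3, below detection on Te, by at least 2.31 and 1.37. The 16 citrate cycle genes had medians of 1.19 and 0.99, with Suclg2 higher by at least 3.00 and 2.85 and Suclg1 by 2.18 and 1.80, both of them subunits of succinyl-CoA ligase.

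The 14 regulators of mitochondrial biogenesis were mixed. Their medians were 0.97 on Tm and 0.93 on Tl, with 7 and 6 genes at least 2-fold higher and 1 lower in each. Tfam, which packages and transcribes mitochondrial DNA, had levels of -3.44, -1.08, and -1.52, and Polrmt, the mitochondrial RNA polymerase, of -2.13, 0.33, and -1.02. Ppargc1a, a coactivator of respiratory chain genes, was the only regulator at least 2-fold lower, with levels of -2.18 on Te and -4.01 on Tl and no detection on Tm. Its relative Ppargc1b differed by -0.48 on Tm and -0.44 on Tl, and in all 3 regulators lay below Te on Tm and 2 on Tl. Nrf1, whose motif type was searched above, had levels of 1.36, 2.27, and 1.51, and Gabpa of 0.05, -0.36, and 0.51. Genes with an NRF1-type match had median differences of 1.27 on Tm and 0.68 on Tl (23 genes), beside 1.50 and 0.58 in the 53 without. The 8 genes with TATAAA had medians of 1.01 and -0.06, beside 1.50 and 0.72 in the 68 without it.

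Glycolysis and the general protein machinery give the comparison outside the mitochondrion. The 18 glycolysis genes had a median of 1.39 on Tm and 0.34 on Tl, with Slc2a1, the glucose transporter GLUT1, higher by 2.87 and 1.88. Proteasome subunits (39 genes) had medians of 1.16 and 0.80. The 75 cytosolic ribosomal proteins had medians of 0.89 and -0.01. The higher level on the Tm array was thus found in each of these lists too, and no test was made of a difference between any of them and the respiratory chain.

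**Figure D4:**
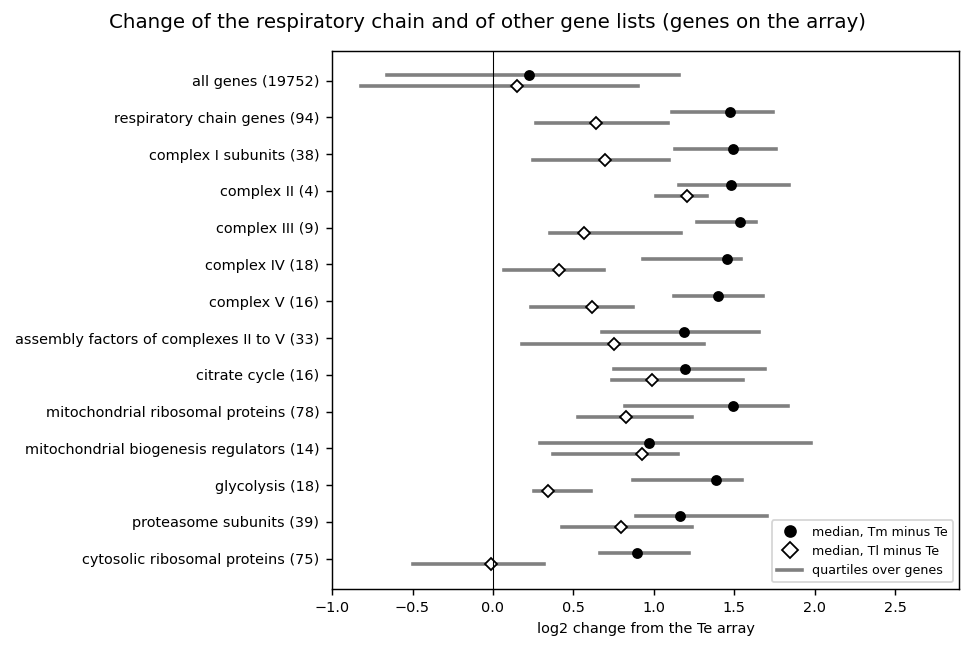
Median log2 difference from the Te array over the genes of each list, for the Tm array (filled circles) and the Tl array (open diamonds), with bars that span the quartiles over genes, not an error between mice. The respiratory chain lies at 1.47 and 0.64, all genes at 0.22 and 0.15, and cytosolic ribosomal proteins at 0.89 and -0.01.

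Signal strength and the markers of other cells are given beside these values. When all genes were split into 10 bins of equal size by the mean signal of their probe, 61 of the 94 members fell into the bin with the strongest signal, where all genes had medians of 0.68 on Tm and 0.12 on Tl and the members of 1.49 and 0.57. The 16 members in the next bin had medians of 1.55 and 1.00, where all genes had 0.82 and 0.48. Of the 15 keratinocyte markers, 13 were at least 2-fold higher on Tm and 12 on Tl, with medians of 3.37 and 3.09. Their summed signal was 279, 419, and 282 on the Te, Tm, and Tl arrays, none was below detection, and the levels of Krt5, a keratin of basal keratinocytes, were 1.58, 5.55, and 4.91. Trp63, a transcription factor of basal keratinocytes, which made up most of that sum, had levels of 8.03, 8.04, and 7.35. The 11 macrophage markers had medians of -0.44 and -0.42 and a summed signal of 904, 778, and 531. Of the 8 proliferation genes, 5, 7, and 8 were detected on the Te, Tm, and Tl arrays, with a summed signal of 3.18, 14.8, and 9.86. Of the 9 fibroblast markers, 8, 7, and 9 were detected, with a summed signal of 93.7, 48.6, and 51.0 and medians of -0.83 on Tm and 0.13 on Tl. The collagen genes Col1a1, Col1a2, and Col3a1 and also Dcn were lower on both later arrays. Thy1 was higher by 1.42 on Tm and 1.01 on Tl, and Fbln1 by 0.58 and 0.13. On Tl, Dpt was higher by 1.86, Lum by 0.37, and Pdgfra by at least 0.91. All 5 endothelial markers were detected, with medians of -1.02 on Tm and 0.077 on Tl. The 4 T cell markers on the array, all detected, had medians of 0.71 and 0.43 and did not move together. Cd3e, a chain of the T cell receptor complex, had levels of -2.76, 1.44, and 0.32. Cd3g was higher by 0.71 and 1.02, Cd3d differed by 0.71 and -0.17, and Lck by -0.78 and -0.69. The part of other cells, of dividing cells, and of signal strength in the respiratory chain values was not tested.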

How the data were processed

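RNA of sorted macrophages from 3 pooled mice per stage was amplified, labeled in 1 color, and run on 1 array each. The authors scanned the arrays, all on 1 slide, and deposited the Feature Extraction (version 10.7.3.1) output, which gives background-corrected intensities on a linear scale, not normalized across the arrays. A deposited table of log2 values, whose normalization is not given in the sources used here, served as an alternative. It held 36409 of the 55681 probes, and each of these differed by at least 1.00 between its highest and its lowest array. Its Tl column matched the scanner file of Tm with 99.8% of probes within 0.05, and its Tm column that of Tl with 99.9%, against 3.07% and 3.08% for the same names. The scanner files were used as assigned to the samples.

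Control spots and outlier spots (162, 274, and 281 on the Te, Tm, and Tl arrays) were left out, spots of a probe were averaged, and log2 of the intensity was taken minus that of the array's 75th percentile. No spot was saturated, 71.4%, 59.6%, and 68.7% of 55681 probes were detected (at least 0.5 of their spots well above background), and the 75th percentile lay 21.7-fold, 16.5-fold, and 32.3-fold above the lowest detected signal. The SD over repeated spots was 0.12, 0.10, and 0.11 (289, 260, and 292 probes). Where a probe was detected on 1 of 2 arrays, the difference is a bound, computed against the higher of the lowest detected signal and the probe's own signal on the dim array, and where it was detected on neither none is given. RefSeq transcripts named 26056 probes, and the probe with the strongest mean signal stood for its gene.

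With 1 array per stage no test was made, and the number of arrays limits the precision. Named genes are, in each complex, the 2 highest and the 2 lowest differences between Tl and Te. The isoform pairs, complex II, Cyc1, Cycs, core subunits, and every gene at least 2-fold different on both later arrays are named too. A plan to name the 2 genes farthest from 0 in other lists was not followed throughout, and not every list has a named gene. Other named genes were chosen after their values were seen. The values of 1 gene are not reported here, though it is counted with its complex. Members, lists, and motifs were chosen with earlier results of these data known. Alternatives were other scalings, normexp background correction (limma 3.58.1, offset 50), the log2 table, the exchange of the later arrays, other filters, outlier spots kept, the median over probes, subunits without assembly factors, and a 10-fold threshold. Scripts (Python 3.11.15) were tested on simulated data.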

Additional observations from a re-analysis of the deposited data

Results flagged for a closer look

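In 2 genes the later arrays differed from Te in opposite directions, each by more than 2 SD of repeated spots, and the difference between the later arrays was not tested because each stage had 1 array. Ndufa11, a membrane subunit of complex I, differed from Te by 0.82 on the Tm array and by -0.43 on the Tl array. Ndufaf5, an assembly factor of complex I, differed by 0.32 on Tm and by -0.57 on Tl, and its second probe was well above background on Te only. Other genes also had opposite signs, but within 2 SD of Te on the Tl array. Among them were Atp5l (1.01 on Tm and -0.18 on Tl), Cox6b2 (0.71 and -0.18), Ndufb7 (0.81 and -0.15), and Atp5g2 (1.12 and -0.08). For Ndufa11 and Ndufaf5, neither opposition held under every scaling: without scaling both genes lay above Te on the Tl array, by 0.73 and 0.59.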

How the results depend on the processing

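The median of the respiratory chain genes lay above 0 for both later arrays against Te under each alternative run. Over the alternatives that keep the arrays as assigned, it was between 0.43 and 1.80 for Tl and between 0.89 and 2.03 for Tm. Over these it lay above the median of all genes by 0.32 to 0.72 for Tl and by 0.58 to 1.35 for Tm. Against Te, scaling to the 75th percentile of probes detected on all arrays gave medians of 0.43 on Tl and 1.10 on Tm with 17 of 92 genes at least 2-fold higher on Tl (18.5%, beside 16.7% of all genes), and scaling to the median gave 1.16 and 2.03 with 56 genes higher on Tl (60.9%, beside 38.6%) and 1 lower on each. Quantile normalization gave 0.89 on Tm with 38 genes at least 2-fold higher (41.3%, beside 29.9%) and 1 lower, and on Tl the share at least 2-fold higher was 27.2%, beside 27.7% of all genes. The share of members at least 2-fold higher on Tl thus depends on the scaling and was not above that of all genes under quantile normalization. Without scaling the medians were 1.80 on Tl and 1.74 on Tm, with 84 genes higher on Tl (91.3%, beside 60.3%) and 1 lower on each. The median of all genes itself shifted to 1.32 on Tl and 0.52 on Tm without scaling. With normexp background correction, and with detection required on both arrays, 1 gene was at least 2-fold lower on Tm. At a 10-fold threshold the count was 0 in every comparison under the scaling used in the report, whereas Cox6a2 passed it on Tm at -3.54 when scaled to the percentile of detected probes, and Ndufaf2 passed it with quantile normalization, with no scaling (Tl only), with no filter, and in the authors' table.

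Between Tl and Tm, the percentile of detected probes gave a median of -0.64. Here 2 genes were at least 2-fold higher (2.17%, beside 10.66% of all genes) and 6 lower (6.52%, beside 7.39%). Quantile normalization gave -0.26 with 1 gene lower (1.09%, beside 7.85%). Without scaling the median was 0.090, with 5 genes higher (5.43%, beside 35.9% of all genes) and 0 lower (beside 1.81%). The median of all genes was then 0.72, so that the members lay below it by 0.63. Normexp left 11 genes lower (12.1%, beside 8.32%). The cause of these shifts was not tested.

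The authors' log2 table and the exchange of the later arrays swap the stages by construction. Under the table the medians were 1.51 on Tl and 0.70 on Tm, with 76 and 27 of 83 genes at least 2-fold higher (91.6% and 32.5%, beside 40.4% and 32.1% of all genes), and 0.84 between Tl and Tm, with 24 genes higher and 0 lower. Under the exchange they were 1.47, 0.64, and 0.81, with 76, 27, and 23 genes higher and 0 lower between Tl and Tm. Between Tm and Te the table gave -0.080 for Atp5g2 and -0.18 for Atp5l, and the exchange -0.081 and -0.18. Between Tl and Tm the table gave 1.20 for Atp5g2, 1.19 for Atp5l, 1.34 for Cox6a1, 1.02 for Cox6b1, 1.07 for Cox7a1, and 1.25 for Ndufa11, and the exchange gave 1.20, 1.19, 1.33, 1.01, 1.07, and 1.25.

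Over the alternatives that keep the arrays as assigned, the direction held throughout for 47 of 49 named genes between Tm and Te, 40 of 49 between Tl and Te, and 16 of 49 between Tl and Tm. No paired analysis was possible because each stage had 1 array, and for the same reason no replicate was left out. Signal over background limits Cox4i2, Cox8b, and Ndufaf2, which lay near or below the lowest detected level on at least 1 array.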
